A study of Mus musculus with 4 samples.

Results

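Of 1536 wells that held sorted cells of mouse ear skin, 124 carried the transcripts of lymphatic endothelial cells. They were chosen on measured values: a well needed at least 600 reads on genes, 500 to 8000 detected genes, reads of 2 or more of the 3 endothelial genes *Pecam1*, *Cdh5* and *Kdr*, and at least 300 CPM (a gene's reads scaled to a common library total) of *Lyve1* or *Prox1*, with less than 300 CPM of each of the mural cell genes *Pdgfrb* and *Kcnj8*. The limits on reads, gene numbers and endothelial genes were met by 1347 wells. Of these, 701 wells had less than 100 CPM of each of *Lyve1*, *Prox1*, *Pdgfrb*, *Kcnj8* and the leukocyte gene *Ptprc*, and served as the comparison wells.

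The study sequenced single dermal endothelial cells by Smart-seq2, a full-length, plate-based method, to describe the blood endothelium of the ear. Cells came from the ear skin of wild-type female C57Bl/6 mice of 12 to 26 weeks, pooled from 6 mice, and 2 replicates of 2 plates, A and B, with 384 wells each were deposited. No group was treated. Cells were sorted as CD31-positive, CD45-negative and Lyve1-negative, so the lymphatic wells are cells that passed a gate set to leave cells with Lyve1 at their surface out, and their share is no estimate of the share of lymphatic cells in the skin. The ages are those of the labels, and the study's methods give a younger range. The labels do not say whether both replicates came from the same mice.

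Lymphatic endothelial cells line the blind-ended capillaries that take up fluid and leukocytes from the tissue, and the collecting vessels with valves that carry lymph away. Prox1, a homeobox transcription factor, sets and keeps their identity against that of blood endothelium, and VEGF-C acting through VEGFR3, the product of *Flt4*, drives their growth. Lyve1, a hyaluronan receptor, is abundant on lymphatic capillaries and scarce on collecting vessels. Lymphatic capillary cells are held together by discontinuous, button-like junctions and collecting vessel cells by continuous, zipper-like ones.

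The lymphatic wells were spread unevenly over the plates. Plates A and B of replicate 1 held 10 and 5 of them, and plates A and B of replicate 2 held 45 and 64. They made up 1.96% of the wells that met the endothelial limits in replicate 1 (95% exact binomial interval 1.10 to 3.21) and 18.7% in replicate 2 (15.6 to 22.1). Of the 399 wells that met the endothelial limits with at least 300 CPM of *Pdgfrb* or *Kcnj8*, 361 were in replicate 1. The limit on these genes removed 1 well that otherwise met the lymphatic limits.

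*Lyve1* alone chose 64 wells, *Prox1* alone 31, and both genes 29, and 66 of the 124 wells had reads of both. In replicate 1, 2 wells were chosen by *Lyve1* alone, 3 by both and 10 by *Prox1* alone, against 62, 26 and 21 in replicate 2. *Lyve1* had a median of 0 CPM over the 15 lymphatic wells of replicate 1, with a highest value of 5724 CPM, and a median of 1659 CPM over the 109 wells of replicate 2, with a highest value of 13455 CPM. *Prox1* reached 1519 CPM in replicate 1, with a median of 518 CPM, and 5182 CPM in replicate 2. Summed over wells, the lymphatic plates held 1256, 98.4, 3124 and 3940 CPM of *Lyve1* and 410, 1268, 1051 and 482 CPM of *Prox1*, where values are given here and below for plates A and B of replicate 1 and then plates A and B of replicate 2. The lymphatic wells of replicate 1 were thus mostly *Prox1* wells and those of replicate 2 mostly *Lyve1* wells.

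**Figure D1:**
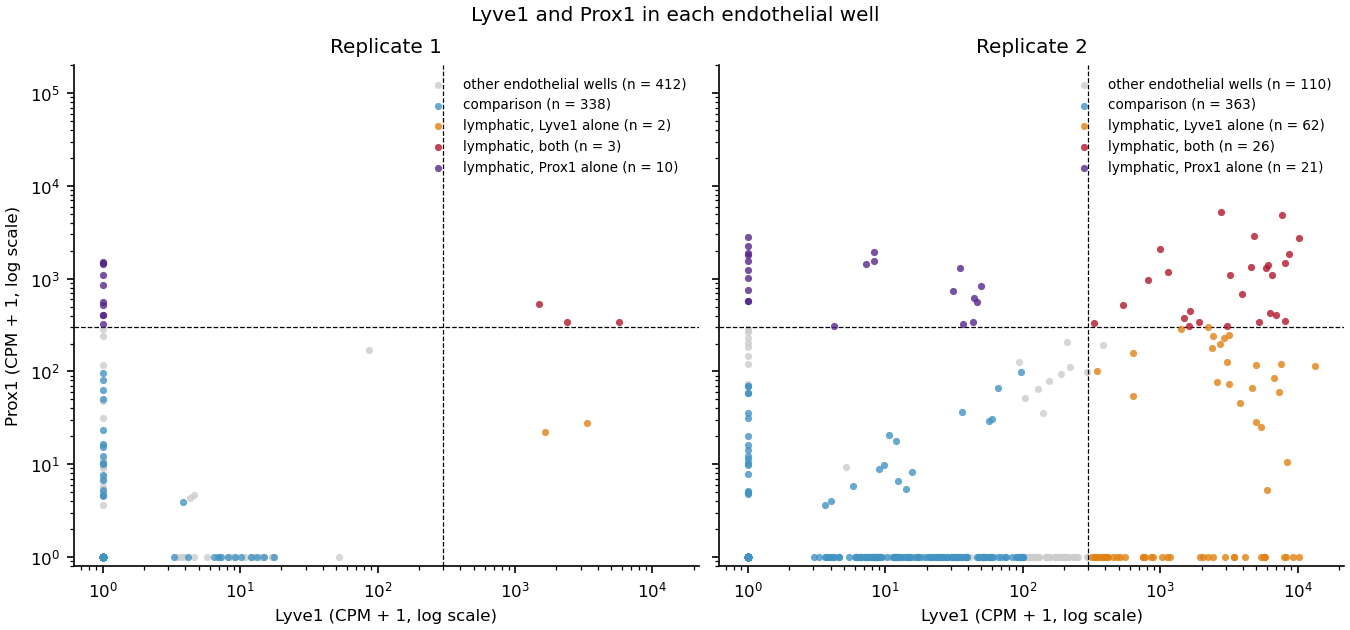
Each point is a well that met the endothelial limits, with *Lyve1* on the x axis and *Prox1* on the y axis, both in CPM + 1 on log scales, by replicate; dashed lines mark 300 CPM. The 15 lymphatic wells of replicate 1 lie mostly along the *Prox1* axis, and the 109 of replicate 2 lie along both axes, with 26 of them past both lines.

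The wells nearest to the limit of 300 CPM rested on very different numbers of reads. Just inside it, 5 wells had 307, 316, 320, 326 and 331 CPM of the choosing gene, from 95, 1, 9, 22 and 1 reads. Just outside it, 5 wells had 283, 284, 293, 294 and 297 CPM, from 51, 70, 2, 3 and 1 reads. In all, 15 lymphatic wells, all of replicate 2, were chosen on fewer than 5 reads of *Lyve1* and *Prox1*, and 3 of them on 1 read. Another 53 wells lay between 100 and 300 CPM and belong to neither group.

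The lymphatic wells were shallower than the comparison wells. Their median number of reads was 96969 against 142614 in replicate 1 and 52841 against 92974 in replicate 2, and they ranged from 2576 to 370358 reads. The median number of genes with a read was 4439 against 4540 in replicate 1 and 2260 against 2576 in replicate 2. Spiked-in control RNA took a larger share of the reads, with medians of 0.597% against 0.314% in replicate 1 and 4.01% against 1.68% in replicate 2. Summed by plate, lymphatic wells held 569222 to 4570291 reads and comparison wells 19841316 to 27624628.

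The name was checked against 6 lymphatic genes that did not choose the wells, namely *Mmrn1*, *Pdpn*, *Flt4*, *Reln*, *Ccl21a* and *Nrp2*. A read of at least 3 of them was present in 105 of 124 lymphatic wells, or 84.7% (95% exact binomial interval 77.1 to 90.5), and in 213 of 701 comparison wells, or 30.4%. After each well was thinned to 20000 reads, which left out 25 lymphatic and 70 comparison wells, the shares were 90.9% of 99 lymphatic wells (83.4 to 95.8) and 7.45% of 631 comparison wells. Most of the lymphatic wells therefore held several lymphatic transcripts at a depth where few comparison wells did. In replicate 1 the thinned shares were 66.7% of 15 lymphatic wells and 0.593% of 337 comparison wells, and in replicate 2, which held most of the lymphatic wells, 95.2% of 84 and 15.3% of 294. The exception was the 17 lymphatic wells with under 10000 reads, all of replicate 2, of which 5 had 3 or more of these genes. Those shallow wells had 0 reads of *Pdpn* and of *Nrp2*, and had 772 CPM of each of the blood endothelial genes *Plvap* and *Ly6c1*, so the lymphatic name rests on little there. Such intervals cover the counting of wells only, and not the spread between replicates.

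To ask which genes set lymphatic endothelial cells apart from the other endothelial cells of the ear, reads were summed over the lymphatic and over the comparison wells of each replicate, and edgeR's quasi-likelihood test was run on these sums, with replicate as a block. Of 17071 genes tested, 216 were higher and 213 lower in lymphatic wells at an adjusted p under 0.05, which is 2.51% of the genes tested, with 1.27% higher and 1.25% lower. In sums per plate, with plate as a block, 117 genes were higher and 176 lower, which is 1.71% of 17101 genes, with 0.684% higher and 1.03% lower, and 287 of these 293 genes had also been called between the replicate sums, all in the same direction. Within the plates of replicate 2 alone, 93 were higher and 107 lower, or 1.31% of 15212 genes (0.611% and 0.703%). Within the plates of replicate 1 alone, 163 of 14616 genes were called. DESeq2's Wald test called 397 genes higher and 671 lower between replicate sums (2.33% and 3.93% of the genes tested) and 505 higher and 1533 lower between plate sums (2.95% and 8.96%). Of the genes described below that edgeR called between replicate sums alone, *Nr2f2*, *Mrc1*, *Sema3a*, *Ackr2*, *Il7*, *Celsr1*, *Piezo2*, *Pard3* and *Cgnl1* passed DESeq2's test between plate sums, at adjusted p from 6.02e-09 to 0.00159. Because the wells were split by the level of *Lyve1* and *Prox1*, genes expressed with these 2 had to differ between the groups, so each test asks only whether a difference was repeated between the 2 replicates or among the 4 plates. Since nothing says that the replicates are separate animals, and plates are parts of a replicate, the p-values measure a spread that may be technical.

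The clearest difference was in the surface and secreted proteins of lymphatic vessels. Of 21 tested members of that list beside *Lyve1*, 19 were higher in lymphatic wells and 0 lower, with a median log2 fold change of 4.12 against -0.46 over all genes tested, and in the plate sums 15 of 22 were higher. As the wells were chosen by *Lyve1* and *Prox1*, and the list with earlier results of these data known, these counts are a description. Together the 22 genes in the files took 14205 to 20945 CPM of the lymphatic plates and 2402 to 3145 CPM of the comparison plates.

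*Mmrn1* (chromosome 6, 60924976 to 60989378, mm10), which encodes multimerin-1, a secreted matrix glycoprotein, had 1875, 1214, 3570 and 4462 CPM in the lymphatic wells of the 4 plates and 1.56, 8.51, 118 and 101 CPM in the comparison wells. Every lymphatic plate was above every comparison plate, and the comparison wells of replicate 2 were above those of replicate 1. The log2 fold change was 6.93 ± 0.38 (SE) between replicate sums (edgeR, adjusted p = 7.41e-69) and 6.88 ± 0.68 between plate sums (edgeR, adjusted p = 2.53e-05), and it was 8.05 in replicate 1 alone and 5.18 in replicate 2 alone. Single wells varied widely: *Mmrn1* ran from 0 to 3956 CPM with a median of 930 CPM in the lymphatic wells of replicate 1, and from 0 to 17978 CPM with a median of 1705 CPM in those of replicate 2. In the comparison wells the medians were 0 and 3.36 CPM. Their highest values were 909 CPM in replicate 1 and 166130 CPM in replicate 2, the latter above every lymphatic well.

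*Reln* (chromosome 5, 21884454 to 22344702), the gene of reelin, a secreted glycoprotein released by lymphatic endothelium, had 1027, 112, 1487 and 2077 CPM against 6.43, 3.33, 29.0 and 22.2 CPM. The groups did not overlap, and the lowest lymphatic value was in plate B of replicate 1, which held 5 lymphatic wells. Its log2 fold change was 6.83 ± 0.50 (edgeR, adjusted p = 1.05e-38). *Pdpn* (chromosome 4, 143267431 to 143299564), which encodes the membrane mucin podoplanin, had 568, 1402, 691 and 298 CPM against 0.545, 10.9, 10.7 and 23.2 CPM, again without overlap. The log2 fold change of *Pdpn* was 6.15 ± 0.61 (edgeR, adjusted p = 1.35e-20), with 6.91 in replicate 1 alone and 4.74 in replicate 2 alone.

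Other members of the list were also apart in every plate. *Igfbp5*, an insulin-like growth factor binding protein, had 1080 to 1589 CPM in the lymphatic plates and 30.6 to 105 CPM in the comparison plates (log2 fold change 4.50 ± 0.44; edgeR, adjusted p = 1.14e-21). *Cp*, the gene of the copper-binding ferroxidase ceruloplasmin, had 866 to 1275 against 19.2 to 97.7 CPM, and *Fgl2*, a fibrinogen-like protein, 462 to 1822 against 31.4 to 102 CPM. *Fxyd6*, a regulator of the sodium pump, had 812 to 1948 against 39.9 to 138 CPM. These 4 genes, picked after their values were seen, did not overlap between the groups. The share of all genes tested without such overlap was not counted, here or for the genes below.

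The guidance molecules *Ntn1* (netrin-1), *Sema3a* and *Sema3d* also rose between replicate sums, by 4.97, 4.47 and 5.48 on the log2 scale, and so did *Thy1*, a surface glycoprotein, by 3.97. *Sema3a* did not pass between plate sums (edgeR, adjusted p = 0.127). Smaller differences were found for *Timp3*, a metalloproteinase inhibitor, which had 2147 to 3906 CPM against 685 to 1016 CPM (log2 fold change 1.77; edgeR, adjusted p = 1.44e-08), and for the tetraspanin *Cd9*, with 1822 to 2238 against 879 to 1086 CPM (1.23; edgeR, adjusted p = 0.00123). Both were read in over 90% of wells of either group, so the groups differed in the level of these genes and not in their detection. With DESeq2's Wald test on replicate sums, neither passed (adjusted p = 0.184 and 0.399). *Emilin1*, an elastin-associated glycoprotein, and *Itga1*, an integrin subunit, were the 2 members that did not pass.

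**Figure D2:**
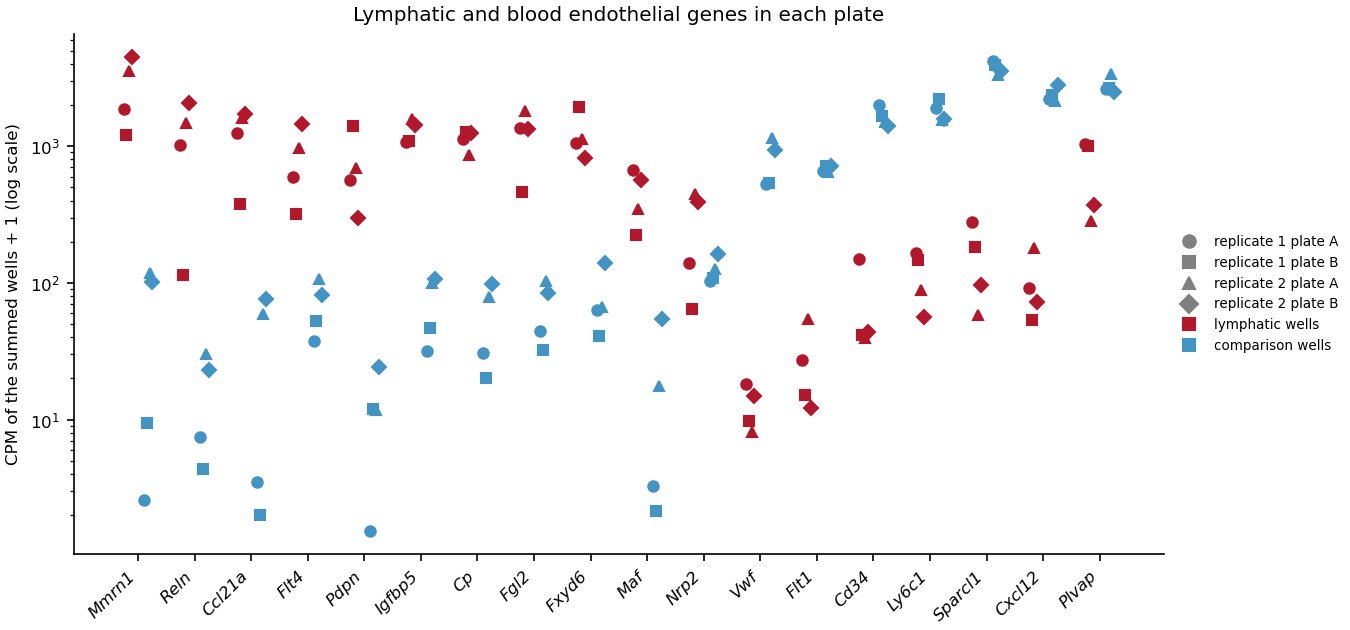
Summed CPM + 1 (log scale) of lymphatic and blood endothelial genes in the lymphatic wells (red) and comparison wells (blue) of each plate; marker shapes stand for the 4 plates. *Mmrn1*, *Reln*, *Ccl21a*, *Flt4*, *Pdpn*, *Igfbp5*, *Cp*, *Fgl2*, *Fxyd6* and *Maf* are higher in every lymphatic plate than in any comparison plate, the genes from *Vwf* to *Plvap* are lower, and *Nrp2* overlaps.

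The transcription factors of the lymphatic program split. Of 11 tested beside *Prox1*, 4 were higher and 1 lower (3 and 1 in the plate sums). *Maf*, the gene of a bZIP factor, had 673, 225, 349 and 564 CPM against 2.29, 1.16, 16.6 and 53.7 CPM and was read in 93.3% of the lymphatic wells of replicate 1 and 73.4% of those of replicate 2 (log2 fold change 6.07 ± 0.73; edgeR, adjusted p = 5.81e-14). *Foxc2*, the forkhead factor of lymphatic valves, had 68.0, 692, 206 and 98.5 CPM against 0.202 to 6.99 CPM, with a read in 20.2% of lymphatic wells (6.55 ± 0.97; edgeR, adjusted p = 3.86e-09). *Maf* was thus shared by most lymphatic wells, and *Foxc2* was found in a minority.

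*Tbx1*, a T-box factor needed for lymphatic vessel growth, had 272, 792, 158 and 106 CPM against 3.95 to 18.4 CPM (log2 fold change 4.95; edgeR, adjusted p = 2.89e-07). *Nr2f2*, which encodes COUP-TFII, a factor of veins and lymphatics, had 89.7, 316, 261 and 343 CPM against 37.7 to 58.0 CPM. It passed between replicate sums (2.50; edgeR, adjusted p = 0.0245) and not between plate sums (edgeR, adjusted p = 0.0782). *Sox18*, which induces *Prox1* in the embryo, had 481 to 1035 CPM in the lymphatic plates and 781 to 1070 CPM in the comparison plates, and the groups overlapped. The member that fell was *Sox17*, the related factor of arterial endothelium, with 17.2, 8.78, 3.45 and 7.22 CPM against 328 to 460 CPM (-5.25 ± 0.76; edgeR, adjusted p = 1.14e-09).

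Among the growth signals, the receptor differed and most partners did not pass. *Flt4* (chromosome 11, 49609263 to 49652739) had 592, 320, 969 and 1459 CPM in the lymphatic plates and 36.9, 51.7, 106 and 80.4 CPM in the comparison plates. The groups did not overlap, and the log2 fold change was 3.77 ± 0.48 between replicate sums (edgeR, adjusted p = 2.52e-12) and 3.62 ± 0.43 between plate sums (edgeR, adjusted p = 0.000143). Its co-receptor gene *Nrp2* had 138, 63.2, 443 and 388 CPM against 103, 107, 126 and 163 CPM. The 2 groups overlapped, with plate B of replicate 1 below all comparison plates, and *Nrp2* did not pass (0.95 ± 0.63; edgeR, adjusted p = 0.552).

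*Kdr*, which encodes VEGFR2 and was used to choose the wells, had 518 to 979 CPM in the lymphatic plates and 559 to 703 CPM in the comparison plates. The angiopoietin receptor gene *Tek* had 190 to 334 against 413 to 571 CPM, without overlap, and did not pass (edgeR, adjusted p = 0.449), nor did its ligand *Angpt2*, with 68.5 to 534 against 176 to 269 CPM. *Adm*, the gene of adrenomedullin, a peptide that promotes lymphatic growth, had 384, 1045, 382 and 68.5 CPM against 98.1, 65.6, 20.8 and 16.6 CPM (log2 fold change 3.37; edgeR, adjusted p = 4.05e-06). Without the wells chosen by *Prox1* alone, *Adm* had a log2 fold change of -2.97 (edgeR, adjusted p = 0.714). Of 12 growth genes tested beside *Kdr*, 2 were higher and 0 lower with edgeR. DESeq2's Wald test called 2 higher and 1 lower between replicate sums, and 3 higher and 1 lower between plate sums.

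Genes by which lymphatic vessels attract and steer leukocytes moved in both directions, with 3 of 13 higher and 2 lower. *Ccl21a*, a chemokine that draws dendritic cells through CCR7, had 1241, 376, 1619 and 1728 CPM against 2.51, 1.01, 57.9 and 75.2 CPM, without overlap (log2 fold change 6.98 ± 0.53; edgeR, adjusted p = 5e-36). It was 8.73 in replicate 1 alone and 4.60 in replicate 2 alone, and the gene has near-identical copies in the mouse genome, so how its reads were divided is uncertain. *Ackr2*, a scavenging chemokine receptor, had 51.7, 1.76, 318 and 216 CPM against at most 2.24 CPM (6.33; edgeR, adjusted p = 7.91e-06), and *Il7*, a cytokine for lymphocytes, 390, 31.6, 135 and 178 CPM against 3.56 to 30.4 CPM (4.76; edgeR, adjusted p = 2.48e-05). In plate B of replicate 1, *Ackr2* lay within the comparison range and *Il7* just above it. Neither passed between plate sums with edgeR and TMM scaling (adjusted p = 0.072 and 0.053), *Il7* passed with DESeq2's size factors (adjusted p = 0.0445), and both did with DESeq2's Wald test (adjusted p = 4.49e-07 and 2.33e-05). The chemokine *Cxcl12* fell, with 91.5, 52.7, 179 and 71.8 CPM against 2126 to 2793 CPM (-4.45 ± 0.36; edgeR, adjusted p = 5.21e-32), and the adhesion molecule *Icam1* fell by 2.23 on the log2 scale between replicate sums (edgeR, adjusted p = 0.00333), but did not pass between plate sums (edgeR, adjusted p = 0.0593).

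The genes of blood endothelium were low in the lymphatic wells as a group. Of 24 tested, 16 were lower and 0 higher, with a median log2 fold change of -3.06, and 16 of 23 were lower between plate sums. *Vwf* (chromosome 6, 125546774 to 125686679), which encodes von Willebrand factor, had 17.2, 8.78, 7.16 and 14.0 CPM in the lymphatic plates and 530, 541, 1146 and 938 CPM in the comparison plates (-5.77 ± 0.59; edgeR, adjusted p = 1.9e-19). *Flt1*, the gene of VEGFR1, had 26.3, 14.1, 53.0 and 11.2 CPM against 646 to 719 CPM (-4.56 ± 0.57; edgeR, adjusted p = 4.56e-13). Neither gene overlapped between the groups. *Sparcl1*, a matrix protein gene, had 276, 181, 57.2 and 96.1 CPM against 3322 to 4235 CPM (-4.62 ± 0.31; edgeR, adjusted p = 1.44e-46).

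Blood endothelial transcripts were low but still read in many lymphatic wells. *Sparcl1* was read in 96.0% of lymphatic and 99.4% of comparison wells, and *Vwf* in 54.0% and 86.0%. After thinning to 20000 reads, these shares were 69.7% and 97.9% for *Sparcl1* and 17.2% and 71.0% for *Vwf*. *Plvap*, which encodes the diaphragm protein of fenestrae and caveolae, had a smaller fold change, with 1045, 996, 284 and 369 CPM against 2485 to 3348 CPM (-2.10 ± 0.29; edgeR, adjusted p = 3.24e-10), and did not pass with DESeq2's Wald test on replicate or plate sums (adjusted p = 0.197 and 0.0852). *Pecam1*, used in choosing the wells, had 645 to 1006 CPM in the lymphatic plates and 2469 to 3447 CPM in the comparison plates, while *Cdh5*, also used, had 163 to 555 against 409 to 485 CPM. Members such as *Emcn*, *Egfl7* and *Icam2* did not pass.

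By vessel type, 7 of 11 capillary genes, 7 of 13 vein genes and 2 of 13 artery genes were lower. The vein genes that fell included the leukocyte adhesion molecules *Selp* and *Sele*, with log2 fold changes of -5.48 and -5.16, the chemokine receptor gene *Ackr1*, with -5.44, and the apelin receptor gene *Aplnr*, with -5.45. *Nr2f2*, described above, was the vein gene that rose. Among capillary genes, the fatty acid carrier *Cd36* had 202, 128, 65.9 and 12.3 CPM against 2966, 3007, 310 and 553 CPM, and no lymphatic plate reached any comparison plate although the comparison level differed between replicates. The homeobox gene *Meox2* fell by 4.52 on the log2 scale. The artery list held a gene that rose, *Fbln5*, which encodes the elastic fibre protein fibulin-5, with 730, 947, 466 and 406 CPM against 138 to 199 CPM (1.99 ± 0.48; edgeR, adjusted p = 0.00224), and did not pass with DESeq2's Wald test on replicate sums (adjusted p = 0.126).

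**Figure D3:**
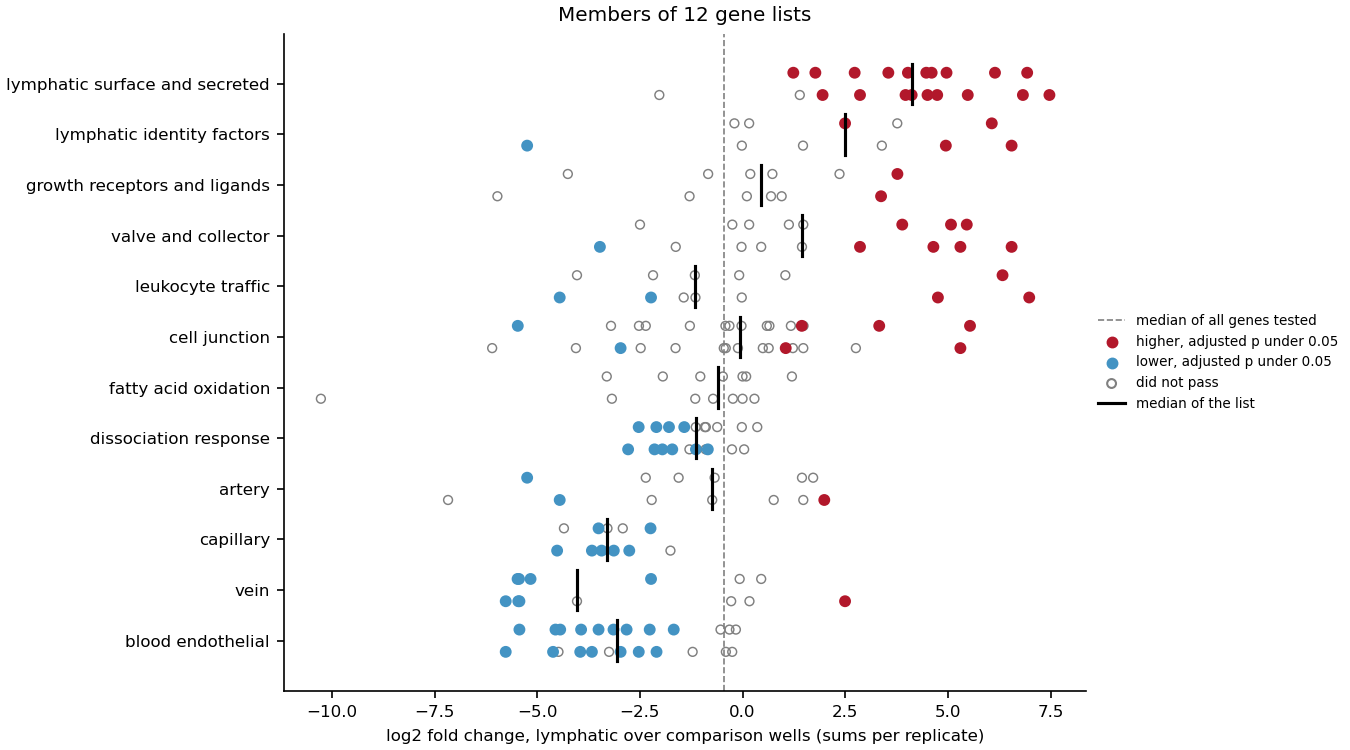
Log2 fold change between replicate sums, lymphatic over comparison wells, of each tested member of 12 gene lists; filled points passed an adjusted p under 0.05 (red higher, blue lower), open points did not, black ticks are list medians, and the dashed line is the median of all genes tested, -0.46. The surface and secreted list has its median at 4.12 and the blood endothelial list at -3.06.

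Genes of lymphatic valves and collecting vessels were mixed, with 7 of 17 higher and 1 lower between replicate sums and 4 higher and 1 lower between plate sums. Besides *Foxc2*, both fits called *Cldn11*, described with the junctions, *Itga9*, the integrin subunit that binds fibronectin in valve leaflets, with 122, 344, 255 and 265 CPM against 27.1 to 40.4 CPM (log2 fold change 2.86; edgeR, adjusted p = 0.00751), and the forkhead gene *Foxp2*, with 52.7 to 272 against 5.32 to 20.6 CPM (3.89; edgeR, adjusted p = 0.00798). *Celsr1*, a planar polarity cadherin, and the mechanosensitive channel gene *Piezo2* passed between replicate sums alone (4.65 and 5.07). Without the wells chosen by *Prox1* alone, *Piezo2* had 5.89 between replicate sums (edgeR, adjusted p = 0.0541) and 8.34 between plate sums (edgeR, adjusted p = 4.51e-08). *Lama5*, a basement membrane laminin chain, was lower, with 5.44, 45.7, 33.3 and 13.6 CPM against 172 to 424 CPM (-3.47; edgeR, adjusted p = 0.000567), and without those wells it had -3.94 between replicate sums (edgeR, adjusted p = 0.242) and -4.43 between plate sums (edgeR, adjusted p = 0.0026). *Gata2*, *Gja1*, *Efnb2* and *Nos3* were among the members that did not pass.

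Junction genes, the subject of the study in blood vessels, showed no common direction. Of 30 tested beside *Pecam1* and *Cdh5*, 5 were higher and 2 lower between replicate sums, with a median log2 fold change of -0.07, and 2 were higher and 2 lower between plate sums. The 4 genes called in both fits were *Cldn5*, *Cldn11*, *Jam2* and *Esam*.

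*Jam2* (chromosome 16, 84774123 to 84825928), a junctional adhesion molecule, had 32.6, 12.3, 8.39 and 7.22 CPM in the lymphatic plates and 903, 804, 644 and 507 CPM in the comparison plates. The groups were far from overlapping, with a log2 fold change of -5.47 ± 0.59 between replicate sums (edgeR, adjusted p = 1.68e-17) and -5.68 ± 0.51 between plate sums (edgeR, adjusted p = 9.12e-06). *Esam*, an adhesion molecule of the same family that is known in endothelium and platelets, had 424, 216, 100 and 121 CPM against 1538 to 1953 CPM (-2.97 ± 0.37; edgeR, adjusted p = 3.7e-13). Another relative, *Jam3*, had 73.4, 5.27, 2.71 and 6.35 CPM against 131 to 218 CPM, without overlap. It passed within the plates of replicate 2 (-5.26, edgeR, adjusted p = 0.0345) but not between replicate sums (-3.21, edgeR, adjusted p = 0.0758). Between plate sums, *Jam3* did not pass with edgeR but did with DESeq2's Wald test (-3.82, adjusted p = 0.00127). Without the wells chosen by *Prox1* alone it passed between plate sums (-5.17, edgeR, adjusted p = 0.0326) and not between replicate sums (-4.65, edgeR, adjusted p = 0.246). *F11r*, which encodes JAM-A, had 1351, 986, 842 and 953 CPM against 839, 796, 654 and 803 CPM and did not pass (0.59 ± 0.34; edgeR, adjusted p = 0.448). The lymphatic plates of *F11r* lay above its comparison plates, by as little as 842 against 839 CPM, and those of the other 3 family members below.

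*Cldn5* (chromosome 16, 18776847 to 18778262), the main endothelial claudin of tight junctions, had 3286, 3336, 2071 and 1382 CPM in lymphatic wells and 1206, 1115, 1293 and 1482 CPM in comparison wells, and was read in 94.4% and 95.4% of their wells. Its CPM was higher in the lymphatic wells of each plate except plate B of replicate 2, where the groups overlapped and the fold change after TMM scaling was 0.13. The log2 fold change was 1.05 ± 0.27 between replicate sums (edgeR, adjusted p = 0.00519) and 1.03 ± 0.23 between plate sums (edgeR, adjusted p = 0.0301). With TMM scaling over the 2 sums of each replicate, it was 1.22 in replicate 1 alone and 0.25 in replicate 2 alone. *Cldn5* did not pass in the plates of replicate 2, where the plate sums were scaled together (0.50 ± 0.26, edgeR, adjusted p = 0.458). It also did not pass without the wells chosen by *Prox1* alone (0.81, edgeR, adjusted p = 0.246) or with DESeq2's Wald test on the replicate sums (1.19, adjusted p = 0.511).

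*Cldn11*, a claudin of venous and lymphatic valves, had 735, 1286, 487 and 65.9 CPM against 13.8, 19.5, 24.6 and 0.979 CPM. The groups did not overlap, with a log2 fold change of 5.30 ± 0.60 (edgeR, adjusted p = 5.07e-16), and 25 lymphatic wells had a read of it. *Cldn15* had 2.72, 100, 0.247 and 0.438 CPM against 43.1 to 127 CPM, with plate B of replicate 1 inside the comparison range, and did not pass with edgeR (-4.06; adjusted p = 0.157), but was lower with DESeq2's Wald test (-3.97; adjusted p = 0.0192). *Ocln*, which encodes occludin, had 0 reads in the lymphatic wells and a read in 1 comparison well.

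The cytoplasmic partners of junctions that passed did so between replicate sums alone. *Jup*, the gene of plakoglobin, had 749, 520, 1094 and 926 CPM against 473, 537, 255 and 199 CPM (log2 fold change 1.44; edgeR, adjusted p = 0.0293), but 0.12 in replicate 1 alone and 2.13 in replicate 2 alone. *Jup* did not pass with DESeq2's Wald test on replicate sums (1.58, adjusted p = 0.34) or without the wells chosen by *Prox1* alone (1.20; edgeR, adjusted p = 0.408). *Pard3*, a polarity protein, had 173, 75.5, 66.4 and 5.03 CPM against 0.605 to 3.66 CPM, and *Cgnl1*, or paracingulin, 184, 165, 164 and 71.8 CPM against 13.5 to 21.7 CPM. *Nectin2*, a nectin of adherens junctions, had 727, 596, 268 and 176 CPM against 118 to 203 CPM and did not pass (1.48; edgeR, adjusted p = 0.112), except with DESeq2's size factors in edgeR (1.62, adjusted p = 0.0477). *Ctnnb1*, the gene of beta-catenin, had 649 to 1117 against 1193 to 1437 CPM, *Tjp1*, or ZO-1, 45.3 to 379 against 127 to 260 CPM, and *Cdh13*, T-cadherin, 440 to 2389 against 943 to 1360 CPM, and none of the 3 passed. Of these, only *Ctnnb1* did not overlap between the groups.

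**Figure D4:**
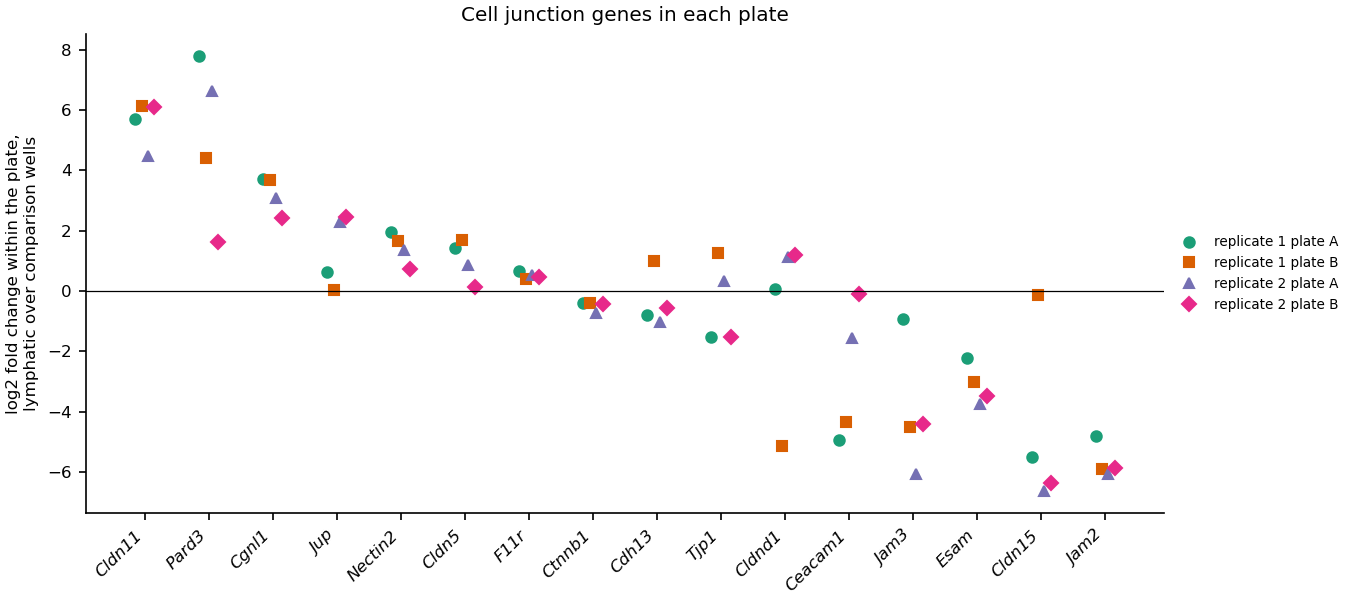
Log2 fold change within each plate, lymphatic over comparison wells, of 16 cell junction genes; marker shapes and colours stand for the 4 plates and the line marks 0. *Cldn11* lies above 4 and *Jam2* below -4 in all plates, while *Cldn5* runs from 0.13 to 1.68.

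Over all genes, the protein-coding genes with the largest increases included *Mmrn1*, *Reln*, *Ccl21a* and *Foxc2* and a group read in few wells. *Sh3gl3*, which encodes an endophilin, was the most even of them, with 140, 146, 150 and 164 CPM in the lymphatic plates and 0.472, 0, 8.16 and 0.694 CPM in the comparison plates. The groups did not overlap, and 33.1% of the lymphatic wells had a read of it (log2 fold change 7.33 ± 1.25; edgeR, adjusted p = 7.84e-07). *Mrc1*, the mannose receptor of macrophages and lymphatic endothelium, had 94.2, 0, 93.0 and 269 CPM against at most 1.48 CPM (7.47; edgeR, adjusted p = 3.59e-06), was read in 21.0% of lymphatic wells and did not pass between plate sums (edgeR, adjusted p = 0.0787).

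The largest decreases were more uniform. *Vwf*, *Jam2*, *Csf2rb* and *Aplnr* were among them, with *Entpd1*, the ectonucleotidase CD39, which had 28.1, 5.27, 10.1 and 16.9 CPM against 598 to 1191 CPM (-5.58 ± 0.56; edgeR, adjusted p = 1.25e-20). *Pdgfb*, the ligand by which endothelium recruits mural cells, had 9.06, 5.27, 1.23 and 1.53 CPM against 183 to 195 CPM (-5.68; edgeR, adjusted p = 1.31e-05). *Prnp*, which encodes the prion protein, had 5.91 to 17.2 CPM against 449 to 532 CPM. These 3 genes, taken from the largest decreases, showed no overlap between the groups. *Csf2rb* has a close copy, *Csf2rb2*, that was also among the 12 largest decreases, and reads may have been split between them.

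Genes of other cells and of cell handling were measured in the same wells. The 17 macrophage genes summed to 99.7 to 495 CPM in the lymphatic plates and 34.7 to 84.2 CPM in the comparison plates, but 10 of them had 0 reads in lymphatic wells, among them *Cd68*, *C1qa*, *C1qb*, *C1qc* and *Adgre1*, and the member that passed was *Mrc1*. Leukocyte genes other than these summed to at most 66.8 CPM, with 8 of 13 at 0, and keratinocyte genes to at most 22.7 CPM. Fibroblast genes summed to 418 to 1124 CPM against 419 to 1131 CPM, and 0 of 12 passed between replicate sums with edgeR or DESeq2. At an unadjusted p under 0.05 with edgeR, 1 was higher and 1 lower, a level that 2312 of all 17071 genes tested passed. Mural genes beside the 2 used in the choice summed to 28.9 to 328 CPM against 532 to 1438 CPM, and *Rgs5* and *Tagln* were lower. *Rgs5* did not pass with DESeq2's Wald test on replicate sums (adjusted p = 0.0873), and neither gene passed between replicate sums without the wells chosen by *Prox1* alone (edgeR, adjusted p = 0.246 for both).

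Early response genes, which are known to rise when tissue is taken apart into cells, were lower in lymphatic wells: 10 of 20 fell and 0 rose between replicate sums, with a median log2 fold change of -1.14, and 8 fell between plate sums. With DESeq2's Wald test, 0 of the 20 passed between replicate sums and 5 fell between plate sums. *Egr1* had 395, 112, 797 and 316 CPM against 1628, 1770, 2726 and 1716 CPM (log2 fold change -2.10 ± 0.33; edgeR, adjusted p = 4e-08), and *Fos* 1585, 3136, 2658 and 949 CPM against 4114, 4506, 4272 and 2756 CPM. *Egr1* did not overlap between the groups, while *Fos* in the lymphatic wells of plate B of replicate 1 lay within the comparison range. *Fos* passed between replicate sums (-0.85; edgeR, adjusted p = 0.01) but, under DESeq2's size factors, not between plate sums (-0.59; edgeR, adjusted p = 0.156). The part of these genes, of depth and of spike-in share in the differences above was not tested. Of 14 genes of fatty acid oxidation, a pathway lymphatic endothelium is known to rely on, 0 passed between replicate sums with edgeR or DESeq2. At an unadjusted p under 0.05 with edgeR, 1 was higher and 1 lower, a level that 2312 of all 17071 genes tested passed. The median log2 fold change was -0.60, against -0.46 over all genes tested. Between plate sums, 0 passed with edgeR and 2 were lower with DESeq2, which called 8.96% of all genes tested lower. There 4 were lower and 0 higher at an unadjusted p under 0.05 with edgeR, a level that 3393 of all 17101 genes tested passed. The median was -1.20, against -0.99 over all genes tested between plate sums.

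Within the lymphatic wells, the gene that chose a well went with different transcripts. The 31 wells chosen by *Prox1* alone had 1084 CPM of *Cldn11* in sum and a read of it in 19 wells, against 40.3 CPM in the 64 wells chosen by *Lyve1* alone and 64.8 CPM in the 29 wells chosen by both. This held in each set of plates: the *Prox1* wells had 1118 CPM in replicate 1, 1611 in plate A and 211 in plate B of replicate 2, and the *Lyve1* wells 191, 0.856 and 50.1 CPM. *Adm* had 890 CPM in the *Prox1* wells against 9.02 and 1.93 CPM, *Tbx1* 442 against 42.3 and 94.7 CPM, and *Foxc2* 479 against 41.1 and 19.6 CPM. For *Foxc2*, 1 of the 2 *Lyve1* wells of replicate 1 went against this, and brought that pair to 572 CPM.

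Transcripts with the opposite pattern included *Mmrn1*, at 4620 CPM in wells chosen by *Lyve1* alone, 4649 CPM in those chosen by both and 1473 CPM in those chosen by *Prox1* alone. *Ccl21a* had 1870, 2120 and 617 CPM, *Reln* 1802, 2316 and 723 CPM, and *Fgl2* 2213, 1400 and 658 CPM in the same order. In replicate 1, the pair of wells chosen by *Lyve1* alone went against this for *Mmrn1*, with 969 CPM against 1294 CPM in the *Prox1* wells, and for *Reln*, with 114 against 509.7 CPM. *Stmn2*, a microtubule regulator known from neurons, had 470, 350 and 21.3 CPM. *Flt4*, with 1282, 1164 and 843 CPM, and *Igfbp5*, with 1426, 990 and 1877 CPM, differed less. The *Prox1* wells were deeper than those chosen by *Lyve1* alone, with a median of 88462 reads against 36137, and made up 10 of 15 wells in replicate 1. As the same reads chose and described these wells, the values are a description with no test.

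**Figure D5:**
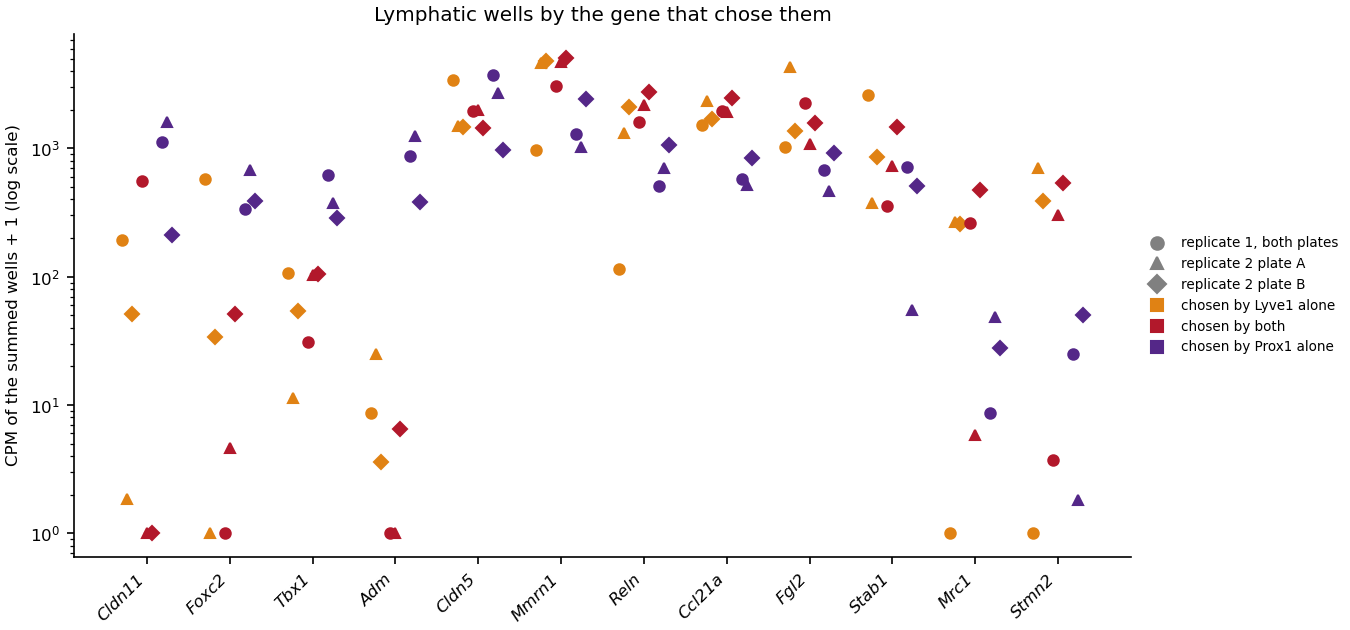
Summed CPM + 1 (log scale) of 12 genes in lymphatic wells chosen by *Lyve1* alone, by both genes or by *Prox1* alone (colours), for replicate 1 and for each plate of replicate 2 (shapes). *Cldn11*, *Adm* and *Tbx1* are highest in the *Prox1* wells of every set, with 211 to 1611 CPM for *Cldn11*, while *Stmn2* has at most 49.6 CPM there and at most 23.8 CPM in any wells of replicate 1.

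The comparison with the other endothelial wells was repeated without the wells chosen by *Prox1* alone. Without the 31 *Prox1* wells, 143 genes were called between replicate sums, of which 140 were among the 429, with 5 lymphatic wells left in replicate 1. Between plate sums, from which plate B of replicate 1 was left out with 1 such well, 267 genes were called against 293, and 196 of them were among the 293. *Cldn11* then had a log2 fold change of 3.01 (edgeR, adjusted p = 0.353), *Foxc2* 4.81 (edgeR, adjusted p = 0.285) and *Tbx1* 2.93 (edgeR, adjusted p = 0.624) between replicate sums, and none of the 3 passed between plate sums. Of the other valve and collector genes, *Foxp2* had 1.72 (edgeR, adjusted p = 0.877), *Celsr1* 1.05 (edgeR, adjusted p = 0.942) and *Itga9* 2.80 (edgeR, adjusted p = 0.316). *Nr2f2* lost its call at 2.63 (edgeR, adjusted p = 0.291), with a fold change no smaller than before. The part of the smaller number of wells in these losses was not tested.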

How the data were processed

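Single dermal endothelial cells of mouse ear skin were sequenced by Smart-seq2 as single 50-base reads without molecular identifiers. Per the labels and the study's methods, the authors aligned reads to mm10 with TopHat2 2.1.1, used SAMtools 0.1.18, assigned reads to genes with Subread 1.4.6-p5 and deposited raw counts per well for 46517 genes and 92 spike-in controls, which were left out of totals. The annotation release is not given in the sources used here. Symbols and coordinates are those of GENCODE vM21, which matched 46005 of the gene identifiers. The study itself left wells with lymphatic transcripts out of its later steps.

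The wells and gene lists were chosen with earlier results of these data known. No doublet caller was run, 1 lymphatic well had at least 100 CPM of *Ptprc*, and 0 wells were identical between plates. Counts were summed per replicate and class, or per plate and class, and edgeR 4.0.16 (quasi-likelihood test, TMM scaling) in R 4.3.3 was applied to genes reaching 10 counts in 2 or more sums. Adjusted p-values are Benjamini-Hochberg values over every gene in a fit. The 4 replicate sums leave 1 residual degree of freedom, so their p-values lean on the spread shared across genes. Replicate or plate was a block because both classes came from the same plates; deviations of same-replicate sums correlated at 0.13. The 8 genes of the selection rule stayed in the fits, were left out of counts of calls and are given without a test. The code was checked on simulated counts. Alternatives used DESeq2 1.42.0, limma 3.58.1 with a pseudocount of 1, other limits on wells, thinning to 20000 reads, other scaling and leaving out each replicate or plate.

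Named genes were those marking the cell type, up to 6 of each list by size of fold change, the junction genes of the study, and the 12 largest protein-coding increases and decreases with a read in at least 3 wells of each replicate. Other list members named in the text, whether they passed or not (such as *Plvap*, *Igfbp5*, *Cp*, *Fgl2*, *Fxyd6*, *Thy1*, *Timp3*, *Cd9*, *Nr2f2*, *Itga9*, *Lama5*, *Jup* and *Fos*), and the genes described by the choosing gene fall outside this rule and were picked after their values were seen. A few genes that met this rule are not reported here.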

Additional observations from a re-analysis of the deposited data

Results flagged for a closer look

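For 100 named genes with a log2 fold change in each of the 4 plates, the highest or lowest plate was set against the others, and 6 genes had a plate that stood apart, where chance gives about 5%. In plate B of replicate 1, which held 5 lymphatic wells, *Mrc1* had a fitted log2 fold change of -3.51 against 8.08 to 9.03 in the other plates and *Piezo2* one of -2.57 against 7.40 to 7.96, and *Selp* had -7.53 against -5.32 to -4.91. The lymphatic sum of that plate held 0 reads of *Mrc1* and 1 read of *Piezo2* in 569222 reads, below a floor of 3 reads, so the fitted values of both depend on the prior count and say nothing about direction. *Selp* had 1.76 CPM there, also under that floor. In plate A of replicate 1, *Robo4*, a guidance receptor of blood endothelium, had -1.42 against -2.94 to -2.76, and *Jam2* had -4.81 against -6.06 to -5.88, so both were least reduced there. In plate A of replicate 2, *Rgcc*, a cell cycle regulator found in capillaries, had -0.94 against -4.50 to -4.39. The causes were not tested.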

How the results depend on the processing

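The number of lymphatic wells was 177 at 100 CPM, 83 at 1000 CPM and 69 with a read of all 3 endothelial genes, against 124. Thinning to 20000 reads moved the share with 3 or more markers from 84.7% to 90.9% in lymphatic wells and from 30.4% to 7.45% in comparison wells. Against 429 calls between replicate sums, there were 144 with reads of both *Lyve1* and *Prox1* required and 152 with comparison wells under 10 CPM of the 5 genes. There were 143 without wells chosen by *Prox1* alone (a setting added after the data were seen, which gave 267 between plate sums) and 1068 with DESeq2's Wald test. With limma on mean CPM per well there were 0 (2197 at an unadjusted p under 0.05), and between plate sums limma called 70 higher and 357 lower. With a replicate left out, the fit was run on the 2 plates of the other. It called 163 genes in replicate 1 and 200 in replicate 2, so these counts do not measure a spread between replicates. Without the replicate block 100 genes were called. Against 293 calls between plate sums, there were 589 after thinning, 2038 with DESeq2's Wald test and 482 without the plate block, and 225 to 267 when a plate was left out. Within replicate 2, thinning gave 455 against 200. DESeq2's size factors moved the median log2 fold change of all genes from -0.46 to -0.33 between replicate sums and from -0.99 to -0.70 between plate sums, the replicate calls from 216 higher and 213 lower to 264 and 190, and the plate calls from 117 and 176 to 139 and 115. Directions turned for *Nrp2* in replicate 1 alone (-0.19, against 1.46 in replicate 2 alone), for *Adm* with reads of both genes required (-1.66, and -1.63 between plate sums) and without wells chosen by *Prox1* alone (-2.97 and -2.46), and for *Coch* without those wells (-1.05 and -0.42). No other gene followed through these settings changed direction. Genes such as *Tjp1*, *Cdh13*, *Ctnnb1*, *Sox18*, *Tek* and *Angpt2* were not among those followed. Of 95 named genes past the threshold between replicate sums, 95 lost it with limma on mean CPM per well and 55 without the block. It was lost by 38 with reads of both *Lyve1* and *Prox1* required and by 38 without wells chosen by *Prox1* alone. With comparison wells under 10 CPM of the 5 genes 36 lost it, with DESeq2's Wald test 24, and among wells of at least 10000 reads 0. Genes whose direction turned are not counted among these. The causes were not tested.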

Other observations

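The comparison wells held some cells with lymphatic transcripts. At least 300 CPM of *Mmrn1* was found in 18 of the 701 comparison wells, 3 in replicate 1 and 15 in replicate 2, with a median of 40001 reads. The highest *Mmrn1* value among them was 166130 CPM, in replicate 2. In sum these 18 wells had 2944 CPM of *Mmrn1*, 961 CPM of *Flt4*, 600 CPM of *Ccl21a*, 469 CPM of *Reln* and 1364 CPM of *Cp*, with 125 CPM of *Plvap* and 58.4 CPM of *Ly6c1*. The other comparison wells had 2796 CPM of *Plvap* and 1867 CPM of *Ly6c1*. The 18 wells were picked after their values were seen, and without them 471 genes were called between replicate sums and 320 between plate sums, as an alternative added after the data were seen.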
